A study of Mus musculus with 7 samples.

Results

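Mouse embryonic fibroblasts (MEFs) kept at 0.1% oxygen for 10 hours were compared with untreated MEFs by RNA-seq, 1 library from each. The members are 11560 genes, out of 49382 listed, whose TPM (transcripts per 1000000, a length-corrected share of the library) averaged 2 or more over all 7 libraries of the series. Symbols starting with Gm, Mir, Snor or mt-T, symbols holding -ps or -rs, and growth factors were left out. These symbol rules kept 11627 genes, 67 of them growth factors. The hypoxia library counts in the mean of the filter. Without it, genes such as Egln3, Ppp1r3c, Selenbp1, Gpr35, Mgarp and H2-Ab1 would have averaged under 2 TPM. Their membership thus rests on their level in hypoxia. The counts of rises below, in lists and against every other library, include such genes. The MEFs were wild type cells of embryonic day 13.5 to 14.4 per the labels (the methods end the range slightly later), grown from the minced body without head and fetal liver, so each culture mixed cells of several embryonic tissues. The methods describe a sort of MEFs without CD45, CD11b and F4/80, surface markers of blood cells and macrophages. Unsorted MEFs served in experiments that say so. The RNA-seq methods open with sorted MEFs and name no unsorted cells for the stress libraries. Neither they nor the labels say outright which were used. All cells were plated in DMEM (a culture medium) per the methods, which do not state the medium or harvest time of the control cells after plating. The 5 other libraries, used here as levels only, came from cells without glucose or without glutamine for 10 hours, with 1 μM thapsigargin (a calcium pump blocker that causes ER stress) for 10 hours, with 10 μM sodium arsenite (oxidative stress) for 3 hours, or with 100 mM NaCl (osmotic stress) for 3 hours, so the last 2 treatments were shorter. Embryos of both sexes were used per the methods, while the strain of these embryos and the number per culture are not given in the sources used here.

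With 1 library per condition there is no replicate, no difference could be set against a spread between cultures, and no p-value is given. Differences are of log2(TPM + 1), hypoxia minus control, a scale on which changes of weakly expressed genes come out too small, and "rose" and "fell" below mean more than 2-fold on that scale. TPM keeps no read count, so the depth is unknown. The libraries listed 19819 to 21154 genes above 0 TPM, 20613 in control and 20154 in hypoxia, and mitochondrially encoded RNA took 6.37% of the control library and 6.50% of the hypoxia library. In bulk RNA, fewer cells of a type and less RNA per cell cannot be told apart.

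Cells sense oxygen mainly through the hypoxia-inducible factor (HIF), a pair of an oxygen-regulated alpha subunit (HIF1A or EPAS1) and the stable partner ARNT. In normal oxygen, the prolyl hydroxylases EGLN1, EGLN2 and EGLN3 use oxygen to mark the alpha subunit, which the VHL ubiquitin ligase then sends for destruction. In low oxygen the subunit persists and binds short DNA letters with the core ACGTG or GCGTG, the hypoxia response element. Its known targets move cells from mitochondrial respiration to glycolysis, remodel mitochondria, store glycogen, and in fibroblasts modify and crosslink collagen.

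The promoter sequences of 6 genes that rose are shown because their windows range from several copies of these core letters to none. Each run is the 250 bases before the start of transcription in RefSeq (build GRCm38.p6), written 5′ to 3′ on the gene's own strand, with the letters ACGTG or GCGTG on either strand in capitals (CACGT or CACGC where the match is on the other strand, and overlapping matches as 1 stretch). The letters ACGTG also lie inside CACGTG, the E-box of other factors. RefSeq starts can differ from the gene spans of GENCODE, the annotation used for gene types here. The Ankrd37 window lies inside its GENCODE span (chr8:45996902-46005707), and parts of the Tpi1, Fam162a and Bnip3 windows lie inside theirs. Bnip3 (chr7:138909507-138909756, minus strand) holds 4 such stretches, Fam162a (chr16:36071562-36071811, minus strand) 6, P4ha1 (chr10:59323046-59323295, plus strand) 3, Ankrd37 (chr8:45999851-46000100, minus strand) 3, Egln3 (chr12:54203875-54204124, minus strand) 1, and Tpi1 (chr6:124814159-124814408, minus strand) 0.
Bnip3: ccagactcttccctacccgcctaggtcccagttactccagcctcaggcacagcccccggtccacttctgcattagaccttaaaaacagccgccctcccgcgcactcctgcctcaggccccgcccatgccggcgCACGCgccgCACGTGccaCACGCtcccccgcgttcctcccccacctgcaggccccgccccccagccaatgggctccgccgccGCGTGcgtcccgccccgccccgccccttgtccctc
Fam162a: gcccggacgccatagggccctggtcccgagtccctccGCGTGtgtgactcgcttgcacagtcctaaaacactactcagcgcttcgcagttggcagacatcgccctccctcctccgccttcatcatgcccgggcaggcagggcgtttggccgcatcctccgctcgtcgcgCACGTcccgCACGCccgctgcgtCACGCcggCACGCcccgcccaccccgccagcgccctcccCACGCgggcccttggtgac
P4ha1: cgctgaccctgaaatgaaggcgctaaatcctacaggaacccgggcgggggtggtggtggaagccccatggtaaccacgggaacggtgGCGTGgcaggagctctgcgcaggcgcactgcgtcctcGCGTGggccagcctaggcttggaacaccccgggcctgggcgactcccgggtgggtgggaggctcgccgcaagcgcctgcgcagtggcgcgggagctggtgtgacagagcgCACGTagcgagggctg
Ankrd37: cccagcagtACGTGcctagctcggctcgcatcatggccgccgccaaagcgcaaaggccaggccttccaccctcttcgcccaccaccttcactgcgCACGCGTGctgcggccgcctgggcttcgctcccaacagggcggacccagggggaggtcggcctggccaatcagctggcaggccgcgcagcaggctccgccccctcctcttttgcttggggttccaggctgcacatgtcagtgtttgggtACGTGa
Egln3: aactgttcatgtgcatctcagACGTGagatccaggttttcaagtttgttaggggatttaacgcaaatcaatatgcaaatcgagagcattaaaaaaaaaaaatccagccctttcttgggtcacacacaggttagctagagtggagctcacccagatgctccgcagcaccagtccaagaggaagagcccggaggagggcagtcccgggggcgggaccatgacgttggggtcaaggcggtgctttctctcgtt
Tpi1: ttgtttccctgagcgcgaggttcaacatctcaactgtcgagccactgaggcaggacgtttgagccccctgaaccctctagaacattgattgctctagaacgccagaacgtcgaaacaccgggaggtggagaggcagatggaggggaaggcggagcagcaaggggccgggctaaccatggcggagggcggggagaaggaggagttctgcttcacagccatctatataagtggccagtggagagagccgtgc

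These letters are common. RefSeq windows of 250 bases before to 50 after a start were matched by symbol to 8863 of the 11481 symbols tested, and at least 1 match stood in a window of 69.5% of them. The share was 77.0% of 152 genes that rose, 79.5% of 73 genes that were more than 2-fold above each of the other 6 libraries, and 54.8% of 84 genes that fell. At least 3 separate stretches were held by 15.2% of all matched genes, 30.3% of those that rose, 38.4% of those above all other libraries and 11.9% of those that fell. Mean GC content was close, at 61.4% in all genes, 61.4% in those that rose, 62.4% in those above all libraries and 60.4% in those that fell, while the number of windows per gene was 1.29, 1.39, 1.48 and 1.25. Counted per window instead of per gene, at least 1 match stood in 63.0%, 64.9%, 66.7% and 53.3% of windows, and at least 3 stretches in 12.6%, 21.8%, 25.9% and 10.5%. A match is a description of letters, not of a bound site, and Ndufa4l2 and Cox4i2 had no window in the table.

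Of the 11560 genes, 238 rose (2.06%) and 121 fell (1.05%), and the median difference was -0.06. At 1.5-fold, 639 genes were higher (5.53%) and 742 lower (6.42%), and 6573 genes (56.9%) were below control by any amount. The larger differences were mostly rises: 69 genes rose and 13 fell by more than 4-fold, and 29 rose and 7 fell by more than 8-fold. The counts depend on low genes: where 5 TPM instead of 1 was added before the logarithm, 145 rose and 31 fell, and among 8341 genes that averaged 10 TPM or more, 111 rose and 61 fell. Hypoxia was the highest of the 7 libraries in 1839 genes (15.9%) and the lowest in 1471 (12.7%). In 103 genes (0.891%) it was more than 2-fold above each of the other 6 libraries, and in 4 genes (0.0346%) more than 2-fold below each. Of the 238 genes that rose, 189 had their highest level in hypoxia. Of the 121 that fell, 57 had their lowest level in hypoxia, and in 40 the control was the highest of the 7 libraries. Gene lists written by pathway or cell type, chosen with earlier results of these data known, held 1035 of the 11560 genes. They held 80 of the 238 genes that rose and 12 of the 121 that fell.

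**Figure D1:**
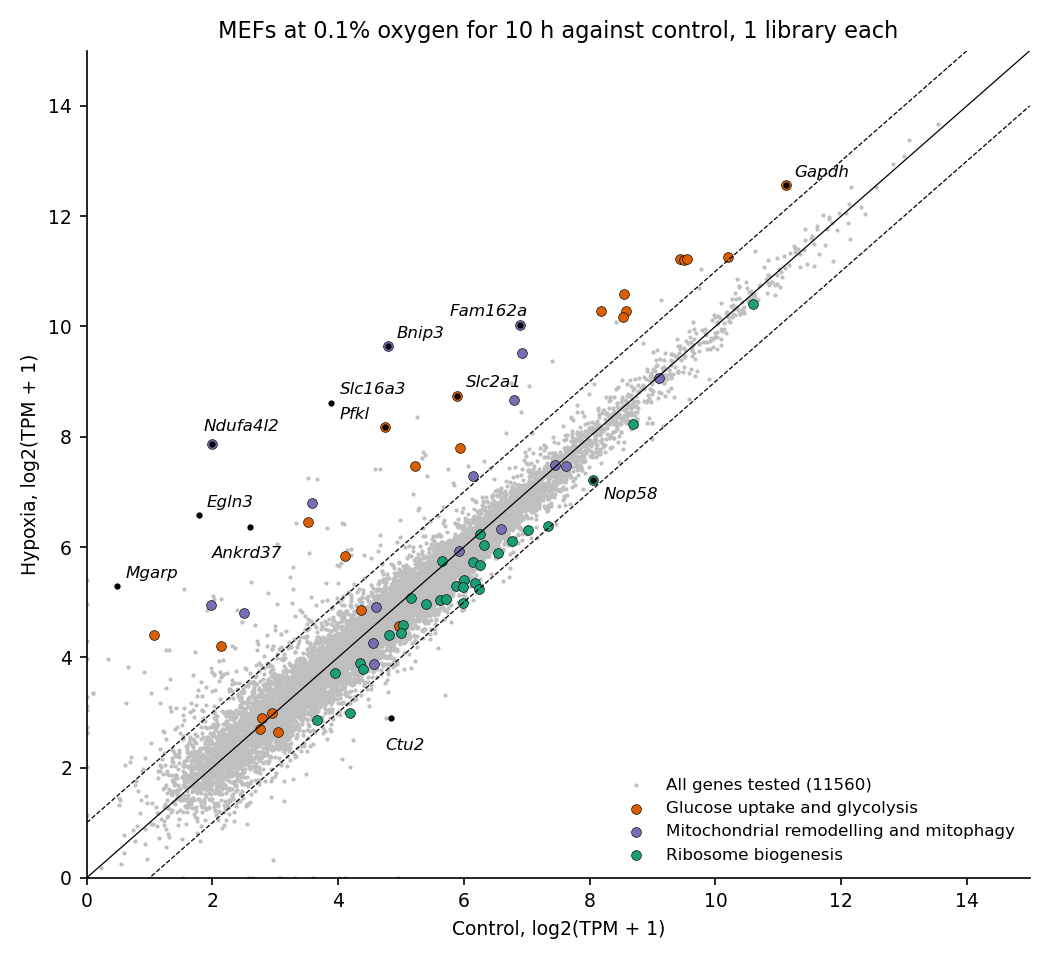
Each point is 1 of 11560 genes by its log2(TPM + 1) in the control library (horizontal axis) and in the hypoxia library (vertical axis), with dashed lines at a 2-fold difference, members of 3 gene lists in colour and black dots on labelled genes. Above the upper line stand 2.06% of all genes, 17 of 23 glycolysis genes, Gapdh and Slc2a1 among them, and 9 of 17 mitochondrial remodelling genes, such as Bnip3. Ribosome biogenesis genes lie mostly below the diagonal.

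Bnip3, Egln3 and Ankrd37, 3 known HIF targets, were high in the hypoxia library and in no other. Bnip3, a receptor on the mitochondrial surface that draws autophagy to mitochondria, was at 26.7 TPM in control, 797 in hypoxia, 37.4 without glucose, 22.7 without glutamine, 29.6 in ER stress, 29.8 in oxidative stress and 37.7 in osmotic stress. Egln3, the hydroxylase that HIF itself induces, was at 2.44 TPM in control, 94.7 in hypoxia, 2.02 without glucose, 1.30 without glutamine, 2.05 in ER stress, 1.26 in oxidative stress and 1.30 in osmotic stress. Ankrd37, an ankyrin repeat protein, was at 5.02 TPM in control, 81.3 in hypoxia and between 0.665 and 8.67 in the other 5. They stood 4.85, 4.80 and 3.77 log2 units above control.

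Among the sensors of the pathway, Egln1 and Egln3 rose, while Egln2, Hif1an and the HIF subunits did not pass 2-fold. Egln1, the main hydroxylase of HIF in most cells, was at 24.4 TPM in control, 170.0 in hypoxia and 16.8 to 26.0 in the other 5 libraries (difference 2.75). Egln2 was at 43.3 TPM in control and 44.9 in hypoxia (difference 0.05). The summed level of the 3 hydroxylases went from 70.1 to 310 TPM, and the share of Egln3 in it from 3.48% to 30.6%. Vhl was at 24.9 TPM in control, 50.4 in hypoxia and 10.5 to 21.3 elsewhere, a difference of 0.99 that stayed just under 2-fold on this scale. Hif1a was at 100.2 TPM in control and 108 in hypoxia (0.10), and Arnt at 35.1 and 38.4 TPM (0.13). Hif1an, which encodes the asparaginyl hydroxylase that silences the activation domain of HIF, was at 13.0 and 13.5 TPM, and Epas1, at 2.69 and 1.84 TPM, had a mean under the filter. These RNA levels say nothing of HIF protein, which is controlled by its stability.

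Glucose uptake and glycolysis rose along nearly the whole path. Of 23 genes of the list, 17 rose and 0 fell (2.06% and 1.05% of all genes), and the median difference was 1.70 against -0.06 over all genes. In 15 of them hypoxia was more than 2-fold above each of the other 6 libraries (0.891% of all genes). Together the list took 0.727% of the control library and 2.21% of the hypoxia library, as 7266 and 22150 TPM, and between 6228 and 8221 TPM in the 5 other libraries. Slc2a1, the ubiquitous glucose transporter, was at 58.4 TPM in control, 428 in hypoxia, 70.5 without glucose, 107 without glutamine, 99.2 in ER stress, 157 in oxidative stress and 55.9 in osmotic stress (difference 2.85). It was highest in hypoxia, with oxidative stress next. Gapdh, often used as a constant reference gene, was at 2221 TPM in control, 6067 in hypoxia and 2105 to 2563 in the other 5 (1.45). Pgk1 went from 291 to 1244 TPM, Tpi1 from 373 to 1530, Aldoa from 726 to 2349, Eno1 from 747 to 2382, Pgam1 from 382 to 1241, Gpi1 from 368 to 1149 and Pkm, the pyruvate kinase, from 1180 to 2438. Ldha, which turns pyruvate into lactate, was at 692 TPM in control, 2381 in hypoxia and 485 to 807 in the other 5 libraries (1.78). The nutrient stresses of the same length had the list at 8221 TPM without glucose and 6904 TPM without glutamine.

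Within several enzyme families 1 or 2 members rose and the rest did not, so that their makeup shifted. Pfkl, the liver-type phosphofructokinase that commits glucose to glycolysis, was at 25.8 TPM in control, 287 in hypoxia, 47.1 without glucose, 26.5 without glutamine, 32.5 in ER stress, 20.6 in oxidative stress and 41.1 in osmotic stress. Its difference of 3.42 was the highest of the glycolysis list, and its share of the phosphofructokinase RNA went from 31.6% to 58.3%, while Pfkp went from 36.4 to 177 TPM (2.25) and Pfkm, the muscle type, from 19.6 to 28.1 TPM (0.50). Pfkfb3, which makes the activator fructose 2,6-bisphosphate, went from 10.4 to 86.4 TPM (2.94) and from 34.6% to 83.0% of its family. Pfkfb1, Pfkfb2 and Pfkfb4 lay between 5.26 and 6.94 TPM in hypoxia and differed from control by -0.39, 0.03 and -0.05. Eno2, the neuronal enolase, went the other way from Eno1, with 30.4 TPM in control and 22.6 in hypoxia (-0.41). Both hexokinases rose, Hk1 from 60.4 to 222 TPM and Hk2 from 16.2 to 56.1 TPM, with Hk2 at 20.1% of the sum in hypoxia and 21.2% in control. Hk2 was also at 48.9 TPM in ER stress.

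Genes for lactate export and for holding back pyruvate oxidation in the mitochondria included some of the largest rises, although the median of the 17 genes was only 0.15. Slc16a3, the lactate exporter MCT4, was at 13.9 TPM in control, 391 in hypoxia, 27.4 without glucose, 10.6 without glutamine, 9.06 in ER stress, 11.1 in oxidative stress and 14.1 in osmotic stress (difference 4.72). Slc16a1, the transporter MCT1, was at 18.1 TPM in control and 23.5 in hypoxia (0.36), so that Slc16a3 went from 43.4% to 94.3% of the pair. Pdk1, a kinase that switches off pyruvate dehydrogenase, was at 10.5 TPM in control, 152 in hypoxia and 5.16 to 14.5 in the other 5 libraries (3.74). It went from 16.1% to 64.6% of the pyruvate dehydrogenase kinases, of which Pdk3 was at 34.0 and 63.6 TPM (0.88), Pdk2 at 10.2 and 11.7 TPM, and Pdk4 at 10.2 and 7.77 TPM (-0.35). Car9, a carbonic anhydrase of the cell surface that handles acid, went from 6.38 to 34.8 TPM (2.28), with 0.935 to 12.1 TPM elsewhere. These 3 genes were the ones of the 17 that rose (2.06% of all genes). Each was more than 2-fold above all other libraries (0.891% of all genes).

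**Figure D2:**
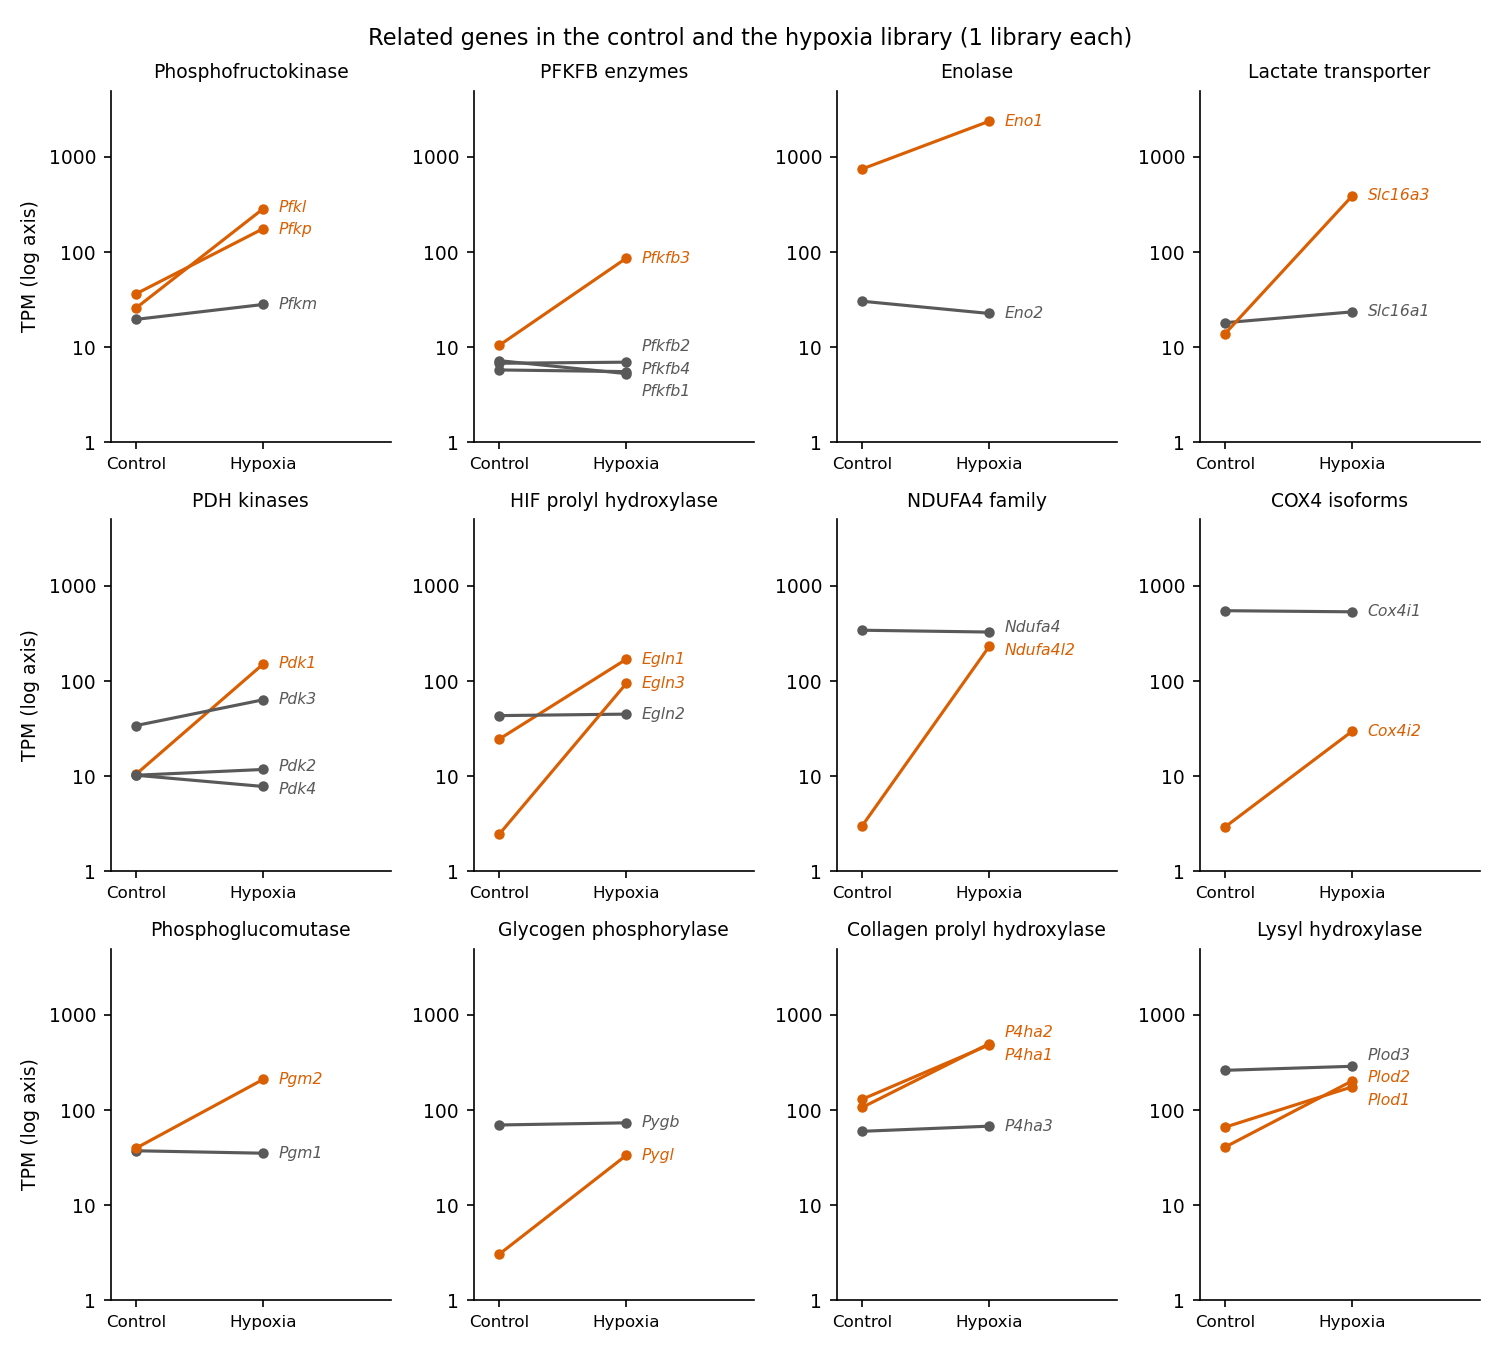
TPM (log axis) of related genes in the control and the hypoxia library, 1 panel per family, with genes that rose more than 2-fold in orange and the others in grey. In most panels a grey line is close to level while an orange one climbs, as with Pdk1 against Pdk2 or Cox4i2 against Cox4i1.

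Glycogen genes rose on the side of synthesis and of breakdown. Of 12 tested genes 7 rose and 0 fell (2.06% and 1.05% of all genes), the median was 1.30 (0.51 where a mean of at least 10 TPM was required, which drops the low members), and hypoxia was the highest of the 7 libraries in 11 (15.9% of all genes). Gys1, the glycogen synthase of most tissues, was at 39.1 TPM in control, 196 in hypoxia, 89.9 in ER stress and 30.5 to 46.0 in the other 4 (2.30). Gbe1, the branching enzyme, went from 6.98 to 21.4 TPM (1.49). Ppp1r3c and Ppp1r3b, which target a phosphatase to glycogen and so activate the synthase, went from 1.39 to 16.6 TPM and from 3.42 to 32.2 TPM. Pygl, the liver-type phosphorylase that releases glucose units, was at 3.04 TPM in control, 33.5 in hypoxia and 1.03 to 4.02 elsewhere (3.10), while Pygb, the brain type and the more abundant, was at 69.6 and 73.4 TPM (0.07). Pgm2, the mouse symbol of the main phosphoglucomutase that joins glycolysis and glycogen, went from 39.7 to 211 TPM (2.38), and Pgm1 was at 37.3 and 35.1 TPM (-0.08).

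On the log2(TPM + 1) scale the largest single rise was in a mitochondrial gene. Ndufa4l2, a relative of the cytochrome oxidase subunit NDUFA4 that HIF induces, was at 2.99 TPM in control, 233 in hypoxia, 6.52 without glucose, 2.72 without glutamine, 0.233 in ER stress, 9.05 in oxidative stress and 7.01 in osmotic stress, a difference of 5.87. With 0.1 TPM added instead of 1, Ndufa4l2 (6.24) came below Mgarp (6.26) and some transcripts listed at 0 in control, such as Trbj2-3 (8.69). Ndufa4, the partner of Ndufa4l2, was at 342 TPM in control and 327 in hypoxia, and the share of Ndufa4l2 in the pair went from 0.867% to 41.6%. Cox4i2, the alternative subunit 4 of cytochrome oxidase, went from 2.92 to 29.8 TPM (2.97), yet Cox4i1 at 549 and 534 TPM (-0.04) stayed the bulk of the pair, with Cox4i2 at 0.528% and 5.28%. Lonp1, a matrix protease that degrades COX4I1, was at 69.8 and 156 TPM (1.15), and higher still in ER stress, at 204 TPM.

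Of 17 tested genes of mitochondrial remodelling and mitophagy 9 rose and 0 fell (2.06% and 1.05% of all genes), with a median of 1.15 (0.31 where a mean of at least 10 TPM was required), and 8 were more than 2-fold above every other library (0.891% of all genes). Fam162a, a mitochondrial protein also called HGTD-P, was at 118 TPM in control, 1046 in hypoxia, 181 without glucose and 107 to 121 in the other 4 (3.14). Higd1a, a small inner membrane protein that acts on the respiratory chain, went from 121 to 729 TPM (2.59), Ak4, an adenylate kinase of the matrix, from 11.0 to 110.3 TPM (3.21), and Bnip3l (NIX), the relative of Bnip3, from 111 to 403 TPM (1.86). Mxi1, which opposes Myc, went from 4.64 to 27.0 TPM (2.31). Bcl2l13, another mitophagy receptor, was lower, at 22.7 and 13.7 TPM (-0.69).

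The respiratory chain itself differed little. Of 82 tested nuclear subunits 3 rose (3.66%) and 0 fell, against 2.06% and 1.05% of all genes, with a median of -0.06. The 3 were Cox4i2, Ndufv3 (101 to 267 TPM, 1.39) and Cox7a1 (2.24 to 7.29 TPM, 1.35). The 13 mitochondrially encoded mRNAs had a median of 0.00, from mt-Nd1 at -0.69 to mt-Co2 at 0.36, and 0 passed 2-fold. The 20 genes of the TCA cycle lay between -0.69 (Suclg2) and 0.11, with a median of -0.20. Mitochondrial ribosomal proteins were mostly below control: 65 of 78 (56.9% of all genes), with a median of -0.29, although only Mrps27 fell (26.6 to 12.4 TPM, -1.04).

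**Figure D3:**
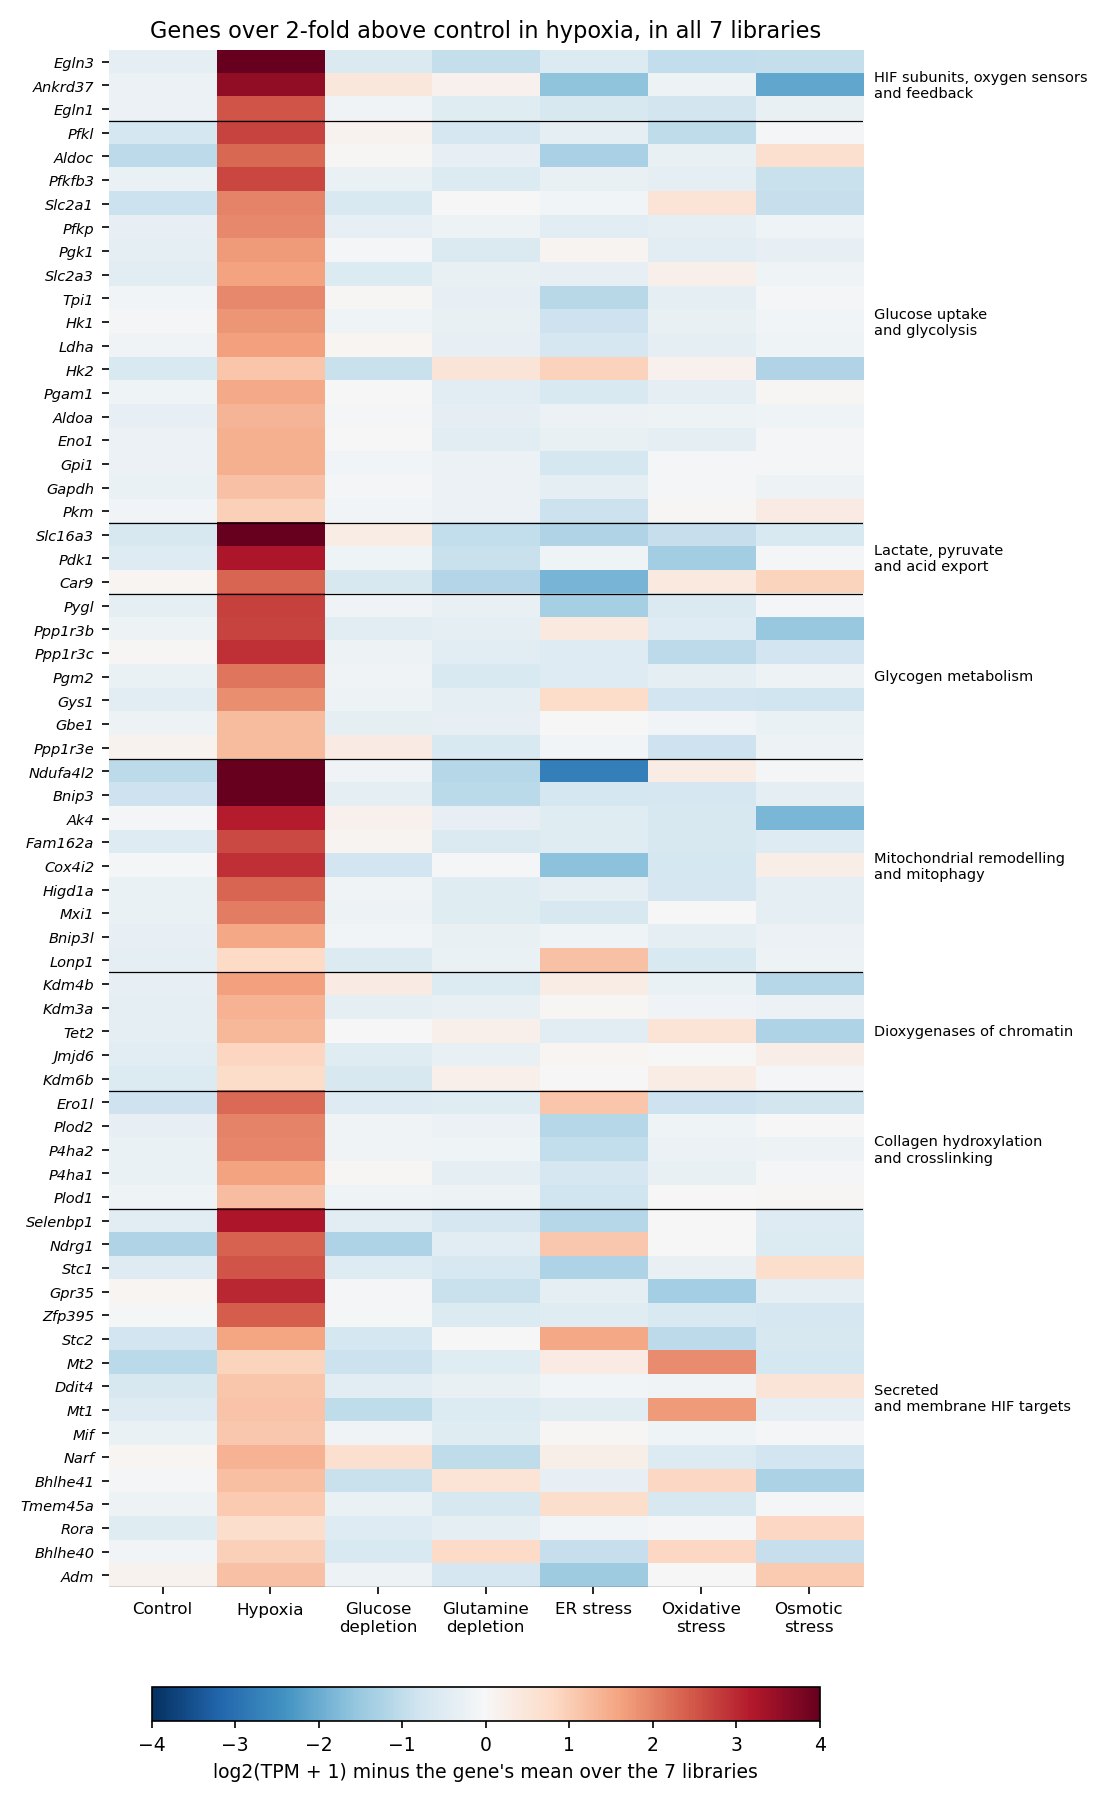
The 65 genes of 8 lists that rose more than 2-fold, by row, in the 7 libraries, by column; colour is log2(TPM + 1) minus the gene's mean over the libraries, with values past the ends of the bar shown in its end colours. Rows were chosen for a rise above control, so a high hypoxia column follows in part from that choice. Hypoxia is the highest of the row in 61 of the 65 genes, against 189 of all 238 genes that rose. Exceptions such as Mt1 and Mt2 are higher in oxidative stress.

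Several other oxygen-using enzymes rose with the HIF hydroxylases. HIF prolyl hydroxylases, histone demethylases of the Jumonji type, TET enzymes and collagen hydroxylases share a need for oxygen, iron and 2-oxoglutarate. Of 21 tested chromatin dioxygenases and relatives, 5 rose and 0 fell (2.06% and 1.05% of all genes), with a median of 0.40. Kdm4b went from 8.71 to 36.6 TPM (1.95), Kdm3a from 16.6 to 60.2 (1.80), Tet2, which oxidises 5-methylcytosine, from 3.08 to 12.0 (1.68), Jmjd6 from 56.2 to 138 (1.29) and Kdm6b from 12.4 to 31.6 (1.28). Kdm8 was at the low end, at -0.58.

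Of 20 genes of collagen hydroxylation and crosslinking, 5 rose and 0 fell (2.06% and 1.05% of all genes), and all 5 were more than 2-fold above each other library (0.891%). P4ha1 and P4ha2, the catalytic subunits of collagen prolyl hydroxylase, which stabilises the triple helix, went from 130 to 486 TPM (1.90) and from 106 to 500.2 TPM (2.22), while P4ha3 was at 59.7 and 67.7 TPM. P4ha1 was at 165 TPM without glucose, 122 without glutamine, 99.5 in ER stress, 128 in oxidative stress and 149 in osmotic stress, all well below hypoxia. Plod2, the lysyl hydroxylase of collagen telopeptides, went from 40.7 to 203 TPM (2.29) and from 11.1% to 30.4% of the lysyl hydroxylases, and Plod1 from 66.0 to 176 TPM (1.40). Ero1l, an oxidase that makes disulfide bonds in the ER, was at 37.2 TPM in control, 327 in hypoxia, 145 in ER stress and 37.2 to 47.8 in the other 4 (3.10). Of 20 tested collagen genes, whose products these enzymes act on, 0 rose (2.06% of all genes) and the median was 0.13. Only Col15a1 fell (1.05% of all genes), from 4.99 to 1.55 TPM (-1.23). Loxl2, a crosslinking amine oxidase, was at 135 and 266 TPM (0.98). None of 34 matrix proteins and metalloproteinases passed 2-fold in either direction, which for so few genes lies close to the shares over all genes.

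Of 26 tested secreted, membrane and other HIF targets that are not growth factors, 16 rose and 0 fell (2.06% and 1.05% of all genes), with a median of 1.21. Ndrg1, a stress-induced protein that restrains cell migration in many tumours, was at 11.7 TPM in control, 149 in hypoxia, 11.4 without glucose, 20.4 without glutamine, 60.6 in ER stress, 28.4 in oxidative stress and 19.2 in osmotic stress (3.56). Selenbp1, a selenium-binding enzyme that oxidises methanethiol, went from 1.91 to 36.9 TPM (3.70), and Gpr35, a G protein-coupled receptor, from 2.77 to 28.2 TPM (2.95). Stc1 and Stc2, the stanniocalcins, which are secreted glycoproteins, went from 3.06 to 32.3 TPM and from 10.5 to 58.3 TPM. Stc2 was as high in ER stress, at 57.3 TPM. Ddit4 (REDD1), which restrains mTORC1, went from 35.4 to 123 TPM (1.77), with 40.4 to 81.1 TPM in the other stresses. The metallothioneins Mt1 and Mt2, which bind zinc and other metals, went from 342 to 1085 TPM and from 168 to 659 TPM, below the 1585 and 1333 TPM of arsenite-treated cells. Hmox1, the haem oxygenase, was at 266 TPM in control and 497 in hypoxia (0.90), against 6055 TPM with arsenite. Only 6 of the 16 were more than 2-fold above every other library (0.891% of all genes).

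Several other groups held a few members that rose. Of 16 tested clock genes 5 rose and 0 fell (2.06% and 1.05% of all genes): Ciart from 4.56 to 24.0 TPM (2.17), Bhlhe41 and Bhlhe40, repressors that HIF induces, from 7.99 to 21.1 and from 49.7 to 105 TPM, Cry1 from 6.79 to 17.4 and Rora from 5.50 to 13.6 TPM. None of these 5 stood more than 2-fold above every other library, and Ciart and Cry1 were higher in ER stress, at 27.2 and 24.7 TPM. In lipid storage, Hilpda, an inhibitor of the lipase that empties lipid droplets, went from 16.1 to 84.9 TPM (2.33), and Dgat2, which makes triglyceride, from 3.98 to 11.0 TPM (1.27), while Dgat1 was at 20.3 and 10.2 TPM (-0.93). Ccng2, an unusual cyclin associated with cell cycle arrest, went from 15.5 to 51.0 TPM (1.66), the largest rise in the G1 list besides Mxi1. Vldlr, a lipoprotein receptor, was at 15.6 TPM in control, 85.9 in hypoxia and 15.9 to 34.5 elsewhere (2.39). Trib3 (30.8 to 71.1 TPM) and Vldlr were the 2 of 24 genes of the integrated stress response list that rose (2.06% of all genes). ER stress held Trib3 at 184 TPM.

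**Figure D4:**
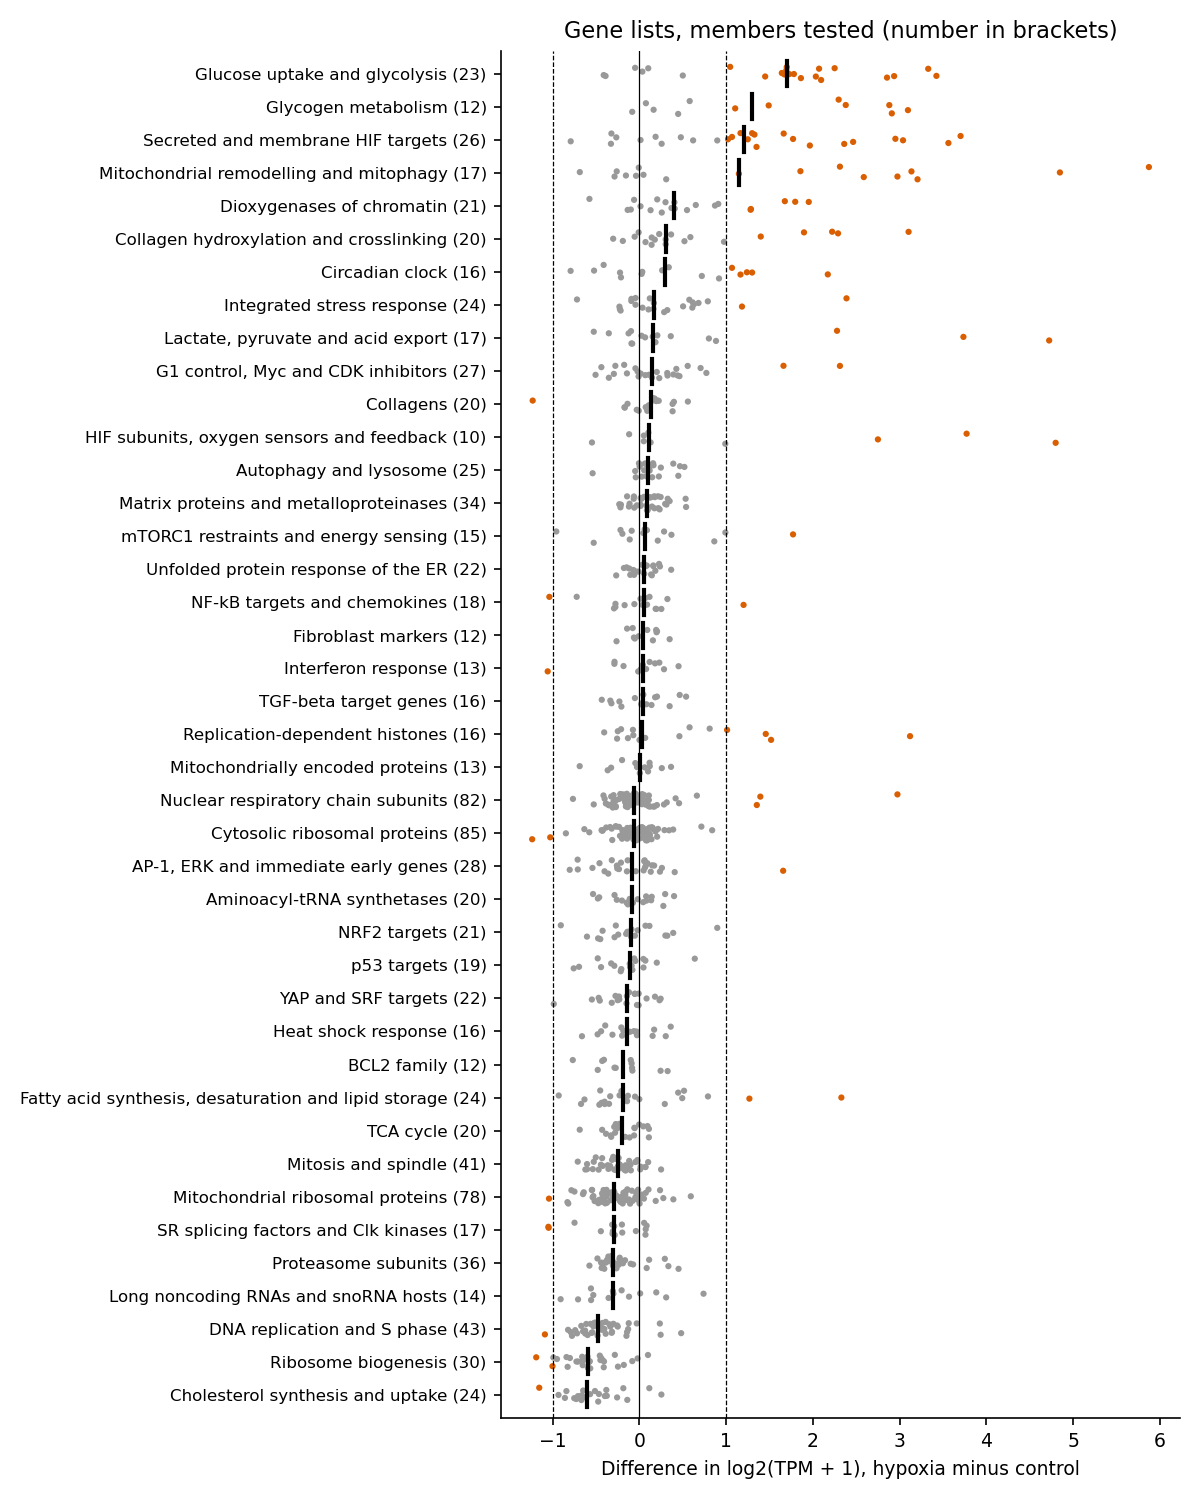
Difference in log2(TPM + 1), hypoxia minus control, of every tested member (points) of 41 gene lists, with the list median as a black bar, dashed lines at 2-fold and genes past them in orange. The medians run from 1.70 for glycolysis to -0.60 for cholesterol synthesis, and most lists in the middle hold few or no genes past 2-fold.

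Lower levels in hypoxia were shallow, and most widespread in ribosome biogenesis. Of 30 genes of this list, which make, modify and assemble ribosomal RNA in the nucleolus, 29 were below control (56.9% of all genes), 15 by more than 1.5-fold (6.42%), and 2 fell by more than 2-fold (1.05%), with a median of -0.59. Hypoxia was the lowest of the 7 libraries in 24 of the 30 (12.7% of all genes). Nop58, a core protein of the particles that methylate ribosomal RNA, was at 265 TPM in control, 147 in hypoxia, 308 without glucose, 386 without glutamine, 584 in ER stress, 206 in oxidative stress and 305 in osmotic stress (-0.84). Its partner Nop56 was at 160 TPM in control and 82.5 in hypoxia (-0.95), and Fbl, the methyltransferase of the same particle, at 129 and 78.3 TPM (-0.71). Polr1b, the second largest subunit of RNA polymerase I, fell from 17.2 to 6.98 TPM (-1.19), and Dkc1, the pseudouridine synthase, from 74.7 to 36.8 TPM. Both were lowest in hypoxia of all 7 libraries. The list as a whole was lowest in hypoxia and highest in ER stress: its median deviation from each gene's mean was -0.59 in hypoxia, 0.90 in ER stress, -0.01 in control and between -0.28 and 0.15 in the other 4. The proteins of the cytosolic ribosome were close to control, with a median of -0.07 over 85 genes, of which Rpl27 (98.0 to 41.0 TPM) and Rpl10 (506 to 248 TPM) fell and 0 rose. Ribosomal protein genes have many near-identical processed copies, so reads may have been split between a gene and its copies.

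Cholesterol synthesis was lower to a similar extent, but not in hypoxia alone. Of 24 genes 22 were below control (56.9% of all genes), 12 by more than 1.5-fold (6.42%), and the median was -0.60. Hsd17b7, an enzyme of the late pathway, was at 54.5 TPM in control, 23.9 in hypoxia, 24.8 without glucose, 35.2 without glutamine, 18.9 in ER stress, 119.6 in oxidative stress and 50.8 in osmotic stress. It was the 1 gene of the 24 that fell (-1.16), against 1.05% of all genes. Idi1 was at 61.2 and 31.6 TPM (-0.93), and Insig1, which senses sterols with SCAP, at 45.8 and 26.8 TPM (-0.75). The list's median deviation was -0.35 in hypoxia, -0.52 without glucose, -0.64 without glutamine, 0.80 in oxidative stress and 0.51 in osmotic stress. Hypoxia was the lowest library in 1 of the 24 genes, and against the glucose depletion library instead of control the median difference of the list was 0.21.

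Genes of DNA replication were below control in 40 of 43 cases (56.9% of all genes), 12 of them by more than 1.5-fold (6.42%), with a median of -0.48, and 0 rose (2.06%). Hypoxia was the lowest library in 7 of the 43 (12.7% of all genes). Rrm2, a ribonucleotide reductase subunit, was at 190.4 TPM in control, 115 in hypoxia, 191 without glucose, 205 without glutamine, 103 in ER stress, 172 in oxidative stress and 185 in osmotic stress (-0.72). Mcm10, Cdt1 and Orc1, which load or fire origins, were at -0.79, -0.78 and -0.82. Ung, the uracil DNA glycosylase, was the 1 gene that fell (1.05% of all genes), from 8.40 to 3.42 TPM (-1.09). Ung was also low without glutamine and in oxidative and osmotic stress, at 1.98 to 3.59 TPM. Of 41 genes of mitosis 35 were below control (56.9% of all genes), with a median of -0.25. Of these 41, 0 passed 2-fold (2.06% of all genes rose and 1.05% fell). Hypoxia was the lowest library in 0 of these 41 (12.7% of all genes), and against the median of the other 6 libraries instead of control the list median was 0.24. The mRNAs of replication-dependent histone genes mostly lack a poly(A) tail and are poorly captured by poly(A) selection. Of 69 such genes 16 passed the filter and 4 of these rose (2.06% of all genes). Their median was 0.03 (0.67 against the glucose depletion library). The 4 that rose were Hist1h2ab (3.38 to 11.5 TPM), Hist1h3d (2.58 to 8.81), Hist1h4n (13.8 to 28.8) and Hist1h4m, listed at 0 in control and at 7.69 TPM in hypoxia.

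**Figure D5:**
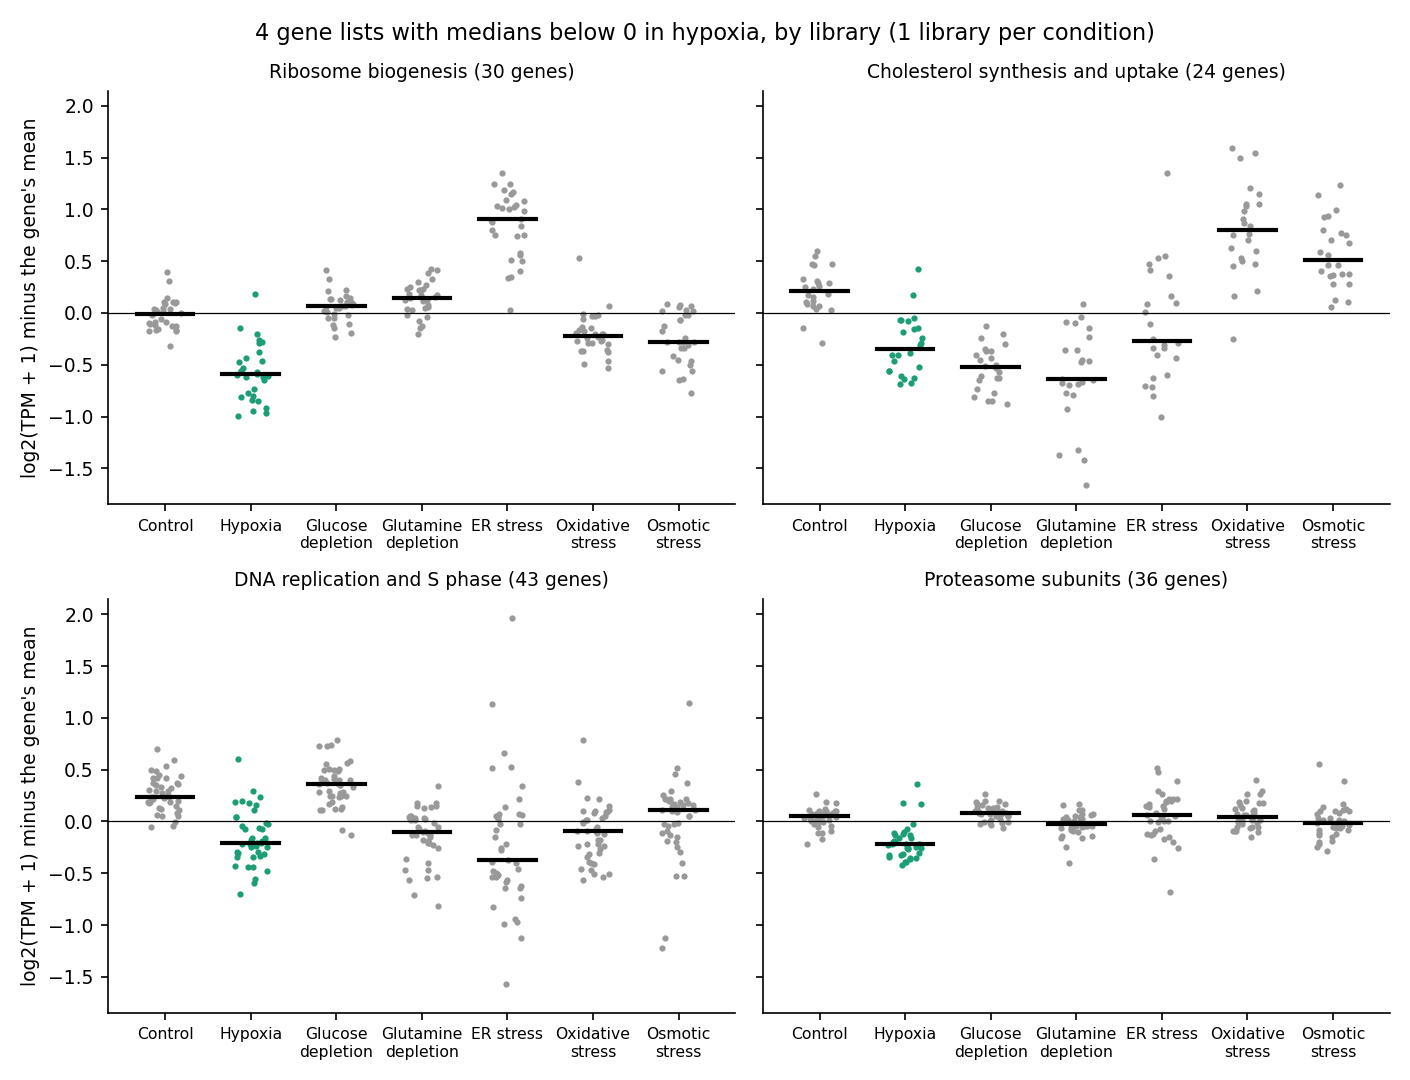
log2(TPM + 1) minus the gene's mean over the 7 libraries for the members (points) of 4 gene lists, by library, with the median as a bar and hypoxia in green. Ribosome biogenesis and proteasome genes have their lowest medians in hypoxia (-0.59 and -0.22), while cholesterol genes are lower without glutamine (-0.64) and replication genes in ER stress (-0.37).

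Proteasome subunits differed by little in each gene and were mostly below control. Of 36 tested subunits 31 were below (56.9% of all genes) and hypoxia was the lowest library in 25 (12.7% of all genes), with a median of -0.30. Of the 36, 0 passed 1.5-fold (5.53% of all genes were higher and 6.42% lower). Among splicing factors and RNA-binding proteins, Srsf5 fell from 176 to 84.8 TPM (-1.05) and Cirbp, the cold-inducible RNA-binding protein, from 29.1 to 13.5 TPM (-1.05). Rbm3, the other cold-inducible protein of this family, was at 507 TPM in control, 301 in hypoxia, 557 without glucose, 479 without glutamine, 294 in ER stress, 424 in oxidative stress and 478 in osmotic stress (-0.75). Hypoxia and ER stress gave its lower levels. The median of the 17 genes of this list was -0.29, and 2 of them fell (1.05% of all genes).

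Other stress programmes were near the control level. The 22 genes of the unfolded protein response had a median of 0.06 and 0 passed 1.5-fold (5.53% of all genes were higher and 6.42% lower). Heat shock genes (16, median -0.15), p53 targets (19, -0.11), NRF2 targets (21, -0.10), BCL2 family genes (12, -0.19), YAP and SRF targets (22, -0.15), TGF-beta targets (16, 0.04), autophagy and lysosome genes (25, 0.10) and aminoacyl-tRNA synthetases (20, -0.09) held 0 genes past 2-fold in either direction. Over all genes 2.06% rose and 1.05% fell, so a count of 0 in lists this short lies close to that share. Ankrd1, a YAP target, was at 29.2 TPM in control and 14.2 in hypoxia (-0.99), Txnrd1, a target of NRF2, at 205 and 109 TPM (-0.91), and Tfrc, the transferrin receptor, of the HIF target list, at 22.9 and 12.8 TPM (-0.79). In the list of AP-1 and immediate early genes, Ier3 alone rose, from 52.9 to 169 TPM (1.66), with 209 TPM in oxidative and 347 in osmotic stress. Of 18 NF-kB targets Tnfaip3 rose, from 2.57 to 7.21 TPM, and Ccl2, a chemokine for monocytes, fell, from 64.9 to 31.1 TPM (-1.04), against 61.3 to 94.1 TPM in the 5 other stresses. Ifit3 fell from 8.83 to 3.72 TPM (-1.06), as the 1 of 13 interferon-induced genes past 2-fold, with 2.24 TPM without glutamine. The 15 genes of mTORC1 restraint and energy sensing had a median of 0.06 with Ddit4 as the 1 rise, the 24 genes of fatty acids and lipid storage -0.19, and 14 long noncoding RNAs -0.30.

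Fibroblast markers were high in both libraries. Most of the listed markers of macrophages, endothelium, epithelium and red cells were at or near 0. Some genes of muscle, cartilage, fat and nerve were present. The 12 fibroblast markers were between -0.26 (S100a4) and 0.35 (Fn1), with a median of 0.04, and Col1a1 was at 3154 TPM in control and 3629 in hypoxia, Vim at 3568 and 3974, and Pdgfra at 29.9 and 28.8. Of 11 macrophage markers only Cd68 passed the filter, at 7.21 and 6.81 TPM. Ptprc (CD45), Fcgr1 and C1qa were listed at 0 in both libraries, and the summed level of the list was 12.3 TPM in control, 10.7 in hypoxia and 8.36 to 18.0 elsewhere. The sort described in the methods would remove such cells. The methods name no unsorted cells for these libraries, but do not say outright that they were sorted. Of 8 endothelial markers Kdr passed (3.64 and 1.92 TPM), with a summed level of 6.91 and 6.18 TPM, and of 8 epithelial markers Krt18 (5.56 and 3.57 TPM), with 6.42 and 4.13 TPM. None of 7 erythroid markers passed. Muscle genes were present, with Acta1 at 80.3 and 76.7 TPM and Des at 35.7 and 30.0 TPM, as were Fabp4 (49.4 and 55.1), Pparg (47.0 and 31.7), Col2a1 (16.5 and 11.7) and Sox9 (10.1 and 10.0 TPM), and of the neural list Map2 (19.9 and 27.9) and Tubb3 (26.0 and 35.3). The 9 muscle markers summed to 116 TPM in control and 107 in hypoxia, the 10 of cartilage and fat to 125 and 110.3 TPM, and the 8 neural ones to 69.7 and 83.2 TPM. None of the listed and tested markers of other cells passed 2-fold. Krt19, a keratin outside the epithelial list, did, at 41.6 TPM in control and 156 in hypoxia (1.88). The reading of other cells thus rests on the markers chosen, and their part in the lists above was not tested.

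Beyond the genes described above, the 15 largest rises held Mgarp, a mitochondrial protein, at 0.398 TPM in control, 38.1 in hypoxia and 0.152 to 1.11 in the other 5 libraries (4.81). They also held H2-Ab1, the beta chain of an MHC class II molecule, at 0.267 TPM in control, 14.8 in hypoxia and 0 to 0.442 elsewhere (3.64). Its partner chain H2-Aa was listed at 0 in every library, and the class II regulator Ciita was at 0.0280 TPM in control and listed at 0 in hypoxia, so that H2-Ab1 stood alone among these genes. The other 4 were short or unusual transcripts listed at 0 in control, for which no fold is given: the T cell receptor joining segments Trbj2-3 (41.3 TPM in hypoxia, and 27.3 without glucose and 24.1 in oxidative stress) and Traj23 (18.6 TPM), the Y RNA Rny3 (30.1 TPM, and 12.2 in ER stress) and the pseudogene CT030170.2 (14.7 TPM). Of the genes more than 2-fold above each other library, the 15 largest added Aldoc, the brain-type aldolase, at 1.10 TPM in control, 20.1 in hypoxia and 0.773 to 5.76 elsewhere (3.33).

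The 15 largest falls were mostly such transcripts. Of these, 10 were listed at 0 in hypoxia: Rnu73b (30.1 TPM in control), 1700026F02Rik (16.3), Rny1 (15.1), AC100406.2 (11.2), the row labelled Snhg7, annotated as a snoRNA (8.93), the other row of Rab3a (7.39), AC161829.1 (7.37), the other row of Sumo3 (5.26), AC132324.1 (4.93) and SNORA77 (2.85). Several were listed at 0 elsewhere too, such as Rny1 in 3 of the 5 other libraries, and AC100406.2 was above control in oxidative and osmotic stress, at 12.9 and 26.6 TPM. The main rows of Rab3a and Sumo3 were at 7.42 and 236 TPM in control and 10.8 and 204 TPM in hypoxia. The remaining 5 were FO907130.1 (6.78 to 0.245 TPM), AC122428.2 (4.98 TPM in control and close to 0 in hypoxia), AL845457.1 (51.0 to 8.93 TPM), and the protein-coding S100a7a and Ctu2. S100a7a, a calcium-binding protein, was at 17.3 TPM in control and 3.01 in hypoxia, with 3.54 to 13.6 TPM in the other 5 libraries (-2.19). Ctu2, which thiolates the wobble base of certain tRNAs, was at 27.7 TPM in control, 6.43 in hypoxia and 13.0 to 23.0 elsewhere (-1.95). The 4 genes more than 2-fold below each other library were AC132324.1, Tmem254c (26.2 to 6.46 TPM), Hoxb5os, an antisense transcript of the Hoxb cluster (4.07 to 1.05 TPM), and Plk3, a stress-responsive kinase (10.7 to 4.24 TPM, and 10.9 to 31.7 elsewhere). Protein-coding genes were 11109 of those tested, with 201 that rose (1.81%) and 93 that fell (0.837%), whereas of 451 other or unmatched genes 37 rose (8.20%) and 28 fell (6.21%).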

How the data were processed

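RNA-seq libraries of MEFs were made with a stranded mRNA kit and sequenced from both ends, with 1 library in each of 7 conditions. The authors quantified the reads with kallisto 0.43.1 on GRCm38 cDNA (Ensembl release 90). The deposited TPM are per gene, with transcripts of a gene added up by the authors. Such values are estimated shares of a library that add to 1000000, so a rise of abundant genes lowers the share of all others, transcripts that share sequence divide reads by estimate, and depth is unknown. Groups were taken from the labels.

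Deposited values were turned into log2(TPM + 1), control was subtracted from hypoxia, and genes past 2-fold were counted among those that averaged 2 TPM or more. No test was run, since no condition had a replicate. A list of 128 growth factors was left out, and 48 gene lists were written by pathway or cell type. The members and lists were chosen with earlier results of these data known. Symbols on several rows were kept as rows (the 121 genes that fell are 120 symbols), and rows of a symbol with identical values counted once in a list. Named genes were Bnip3, Egln3 and Ankrd37, the 15 largest rises and falls, the same among genes past 2-fold against every other library, and list members past 2-fold or at the ends of their list's range. The class II genes beside H2-Ab1 were chosen after its value was seen. Gene types and positions came from GENCODE M21 by Ensembl identifier (116 tested genes unmatched), and promoters from RefSeq on GRCm38.p6 by symbol.

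Alternatives were pseudocounts of 0.1 and 5 TPM, a minimum mean of 10 TPM or none, thresholds of 1.5-fold and 3-fold, subtraction of the median difference, rescaling without the genes of the mitochondrial genome, another reference (the median of the other 6 libraries, or glucose depletion), a narrower Gm rule, and, added after seeing the data, protein-coding genes alone. The steps were tested on simulated data. Software was Python 3.11.15 with pandas 2.3.3, numpy 2.4.6 and matplotlib 3.10.9.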

Additional observations from a re-analysis of the deposited data

How the results depend on the processing

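No paired analysis was possible because each condition had 1 library, and for the same reason no replicate could be left out. The count of genes above control by more than 2-fold, 238, became 145 with a pseudocount of 5 TPM, 378 of 26804 genes with no filter, 111 of 8341 with a mean of at least 10 TPM, 639 at 1.5-fold and 109 at 3-fold. The count below control, 121, became 198 with a pseudocount of 0.1 TPM, 31 with 5 TPM, 218 with no filter, 61 with a mean of at least 10 TPM, 742 at 1.5-fold and 20 at 3-fold. Under the 7 other settings for the first count and the 6 for the second, both stayed within 1.5 times. Among list medians, 404 values moved by less than 1.5-fold and 4 by more: glycogen metabolism (0.51) and mitochondrial remodelling (0.31) with a mean of at least 10 TPM, and cholesterol synthesis (0.21) and histones (0.67) against the glucose depletion library. Removing mitochondrially encoded genes, or keeping protein-coding genes alone, left no median for the list of those genes and for that of long noncoding RNAs. Of 41 list medians, 12 changed sign under at least 1 setting, mitosis (0.24) and the integrated stress response (-0.09) against the median of the other 6 libraries among them. Of single named genes, 230 values moved by less than 1.5-fold, 71 by more, and 2 changed sign, both against the glucose depletion library, FO907130.1 (0.32) and AL845457.1 (0.82). The first filter drops low genes by its construction, and for the other shifts the cause was not tested. With 1 library and unknown depth, the difference between cultures cannot be told apart from the difference between conditions.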

Other observations

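Outside the gene lists, further genes that were chosen after their values were seen stood more than 2-fold above control and above each other library in hypoxia. Prelid2 was at 9.04 TPM in control, 85.7 in hypoxia and 5.69 to 7.35 elsewhere, and Rcor2, a corepressor that binds the histone demethylase LSD1, at 7.12 TPM in control, 65.2 in hypoxia and 2.11 to 11.3 elsewhere. Ndrg2, a relative of Ndrg1, was at 5.10 and 40.4 TPM, and Apln, the ligand of the apelin receptor, at 13.2 and 80.7 TPM. Clybl was at 7.15 and 30.1 TPM and Grhpr, the glyoxylate reductase, at 17.4 and 57.1 TPM. Nampt, the rate-limiting enzyme of NAD salvage, was at 30.7 TPM in control, 89.2 in hypoxia and 17.5 to 43.6 elsewhere, and Krt19, a keratin, at 41.6 TPM in control, 156 in hypoxia and 34.9 to 64.4 elsewhere. Map2k1 (MEK1) was at 55.7 and 142 TPM and Alkbh5, an RNA demethylase of the same oxygen-dependent enzyme class as the Jumonji proteins, at 24.3 and 64.3 TPM, both past 2-fold against control but not against every other library.

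Further genes that fell and belong to no list were also chosen after their values were seen, and no pathway was counted for them. Nhp2, a partner of Dkc1, was at 104 TPM in control, 42.9 in hypoxia and 84.2 to 126 in the other 5 libraries, Gpatch4 at 36.5 and 14.3 TPM, Ftsj3 at 62.2 and 29.4 TPM, and Rbm19 at 26.9 and 12.0 TPM. Hypoxia was the lowest library in each of these 4. Brca2 was at 8.69 and 2.44 TPM, Fancm, a DNA translocase, at 9.64 and 3.94 TPM, and Exo1, an exonuclease, at 21.9 and 9.78 TPM, the last lower still in osmotic stress at 3.95 TPM. Mat2a, which makes S-adenosylmethionine, was at 61.7 and 28.1 TPM. Plaur, the urokinase receptor, was at 106 TPM in control, 48.1 in hypoxia and 79.7 to 280 elsewhere. The 12 genes with ordinary names that the symbol rule removed because they start with Gm lay between -0.70 (Gmip) and 0.20 (Gmcl1), and 0 of them passed 2-fold.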
